A study of Mus musculus with 8 samples.

Results

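The diaphragm muscle of control mouse embryos was compared between E18.5 and E14.5 (embryonic day, with the day of the vaginal plug as the start), across all genes of the probe set. The samples were 5 sections read with 10x Visium, which counts UMIs (distinct captured molecules) per gene in a grid of spots 55 µm wide and 100 µm apart: 3 control sections at E14.5 and 2 at E18.5, each from 1 embryo. The members of the comparison are muscle spots. A spot was chosen by 2 readouts of its own counts, at least 1000 UMIs and a muscle score above the cut that Otsu's method sets for its section. The score is the mean of the log-normalized values (natural log of 1 plus UMIs per 10000) of 9 genes of the sarcomere and triad: the giant proteins *Ttn* and *Neb*, *Acta1* (skeletal actin), the Z-disc and filament proteins *Actn2* and *Des*, the light chains *Mylpf* and *Myl1*, *Tnnt3* (fast troponin T) and *Ryr1* (the calcium release channel). This rule took 6992 of the 8323 spots kept in the 5 control sections, out of 12771 spots under tissue in the 8 sections of the series. The other 3 sections are mutants and enter only 1 of the alternative fits. Controls carried at least one allele that expresses CaV1.1 and one that expresses β-catenin, so heterozygotes may be among them, and the labels name no agent. Some of the crosses carried a Cre under the HSA (skeletal actin) promoter, and whether a given control carried it is not stated in the sources used here. Sections are from paraffin-embedded, fixed diaphragm, 5 µm thick.

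Fetal skeletal muscle grows in waves. Proliferating progenitors fuse into myotubes that first carry embryonic myosin, slow or cardiac troponins and fetal acetylcholine receptors, and later assemble complete sarcomeres, couple membrane excitation to calcium release and build up oxidative and glycolytic enzymes. Many proteins of the sarcomere and of energy metabolism exist as an early or broadly expressed isoform and a late or muscle-specific one, made from separate genes. The diaphragm has to contract at birth, and E18.5 lies shortly before it.

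The 3 E14.5 sections gave 549, 571 and 581 muscle spots, and the 2 E18.5 sections gave 3092 and 2199. Their summed UMIs were 20665676, 29459053 and 12835167 at E14.5 and 75800909 and 62934506 at E18.5, with a median of 18115 to 49950 UMIs per muscle spot at E14.5 and of 23525 and 27917 at E18.5. The cut lay at a score of 2.54, 2.19 and 2.27 at E14.5 and of 3.79 and 3.58 at E18.5. The members nearest to it had scores of 2.54, 2.19, 2.27, 3.80 and 3.58, and the nearest spots outside it 2.54, 2.18, 2.26, 3.79 and 3.58, so the cut passes through a continuous range and 25 to 93 spots per section lie within 0.1 of it. The cut moved with stage: the median score of the spots left outside it was 1.69 to 2.19 at E14.5 but 3.39 and 2.95 at E18.5, as high as the median of the E14.5 muscle spots (2.82 to 3.01). Spots outside muscle at E18.5 thus held muscle transcripts too. The share of muscle spots with muscle on all 6 sides was 44.1% to 65.1% at E14.5 and 77.2% and 71.2% at E18.5. In all pairs of sections the counts differed by more than sampling noise, and log2 CPM correlated at 0.978 to 0.991 within a stage and at 0.868 to 0.891 between stages across genes, which are not independent replicates. *Ddx3y*, *Kdm5d*, *Eif2s3y* and *Uty*, genes of the Y chromosome, held 0 or 1 UMI in E14.5 control 1 and 414 or more in each of the other 4 sections, so that section lacks Y transcripts and no E18.5 section does.

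**Figure D1:**
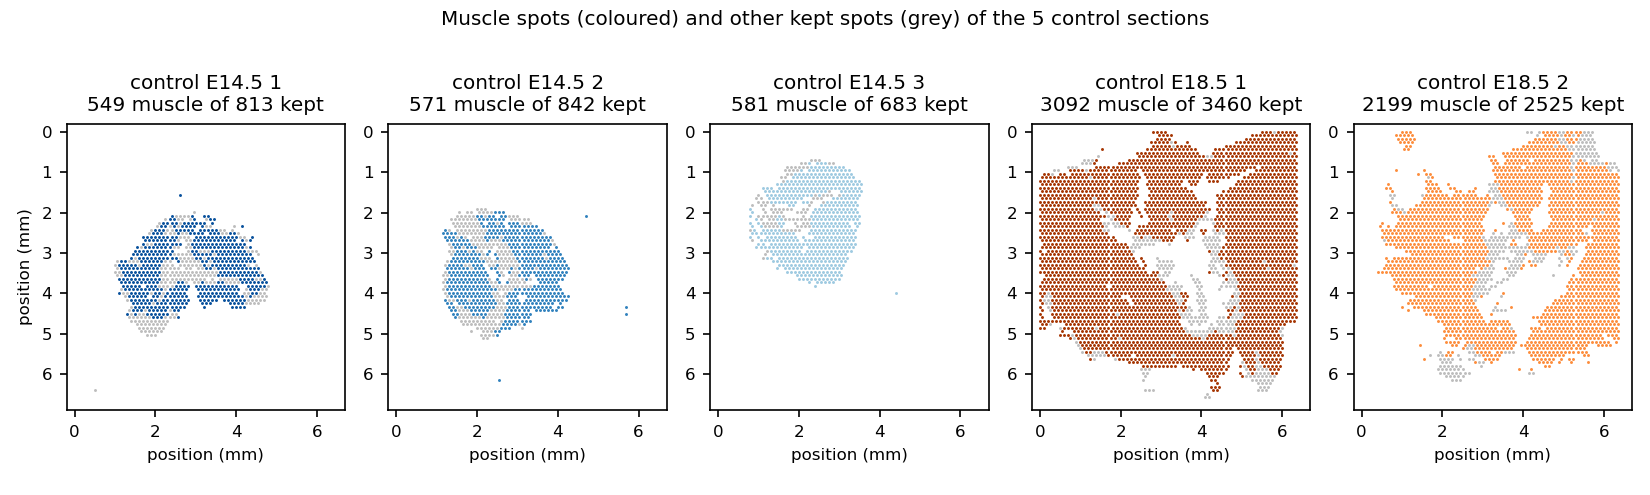
Kept spots of the 5 control sections at their place on the capture grid (both axes in mm), muscle spots in colour and the other kept spots in grey. Muscle spots number 549, 571 and 581 at E14.5 and 3092 and 2199 at E18.5, where the muscle reaches the edge of the grid.

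Each section's summed muscle UMIs made 1 replicate of edgeR's quasi-likelihood fit. Levels are TMM-scaled CPM, UMIs of a gene relative to the section's total after the scaling that edgeR derives from the bulk of the genes. A fold change is E18.5 over E14.5 on the log2 scale, with its standard error (SE), and a gene was called where the Benjamini-Hochberg adjusted p over all genes was below 0.05. Of 14168 genes tested, 68.5% were called, 34.1% higher at E18.5 (4838 genes) and 34.4% higher at E14.5 (4868 genes). At least 2-fold differences were called for 2481 genes higher at E18.5 (17.5%) and 1867 higher at E14.5 (13.2%). In 79.4% of the genes the values of the 2 stages did not overlap. Counts of called genes in the lists below stand beside these shares of all genes. The 20 most abundant genes took 9.34%, 8.67% and 8.67% of the muscle UMIs in the E14.5 sections and 27.3% and 27.5% in the E18.5 sections. The split of the calls depends on the scaling: scaled to total UMIs without TMM, 2222 genes were higher at E18.5 and 8979 at E14.5, and scaled to the 9 muscle genes of the score, 285 and 13322. The 2 scalings move the median of all genes from −0.03 to −0.74 and −2.83, and the fold changes below are relative to the TMM scale. Whether a gene's level changed because cells of a type were more or fewer, or because each held more or less of its RNA, cannot be told apart in such sums.

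The 9 genes that chose the spots differed between stages themselves, and are given without a test. *Actn2*, *Ttn* and *Ryr1* stood 1.93, 2.01 and 2.07 higher at E18.5 on the log2 scale, *Neb*, *Des* and *Mylpf* 2.42, 2.82 and 2.83, and *Myl1*, *Tnnt3* and *Acta1* 3.26, 3.79 and 3.95. Skeletal α-actin (*Acta1*) held 4844, 3657 and 3747 CPM at E14.5 and 61049.8 and 65385 at E18.5. Together the 9 genes took 2.16% to 2.74% of the muscle UMIs at E14.5 and 12.8% and 13.2% at E18.5. Their range, from 1.93 to 3.95, is given below for scale only, since these genes chose the spots under a cut that moved with stage. Of the tested genes 881 had a fold change within this range, and 192 rose more than *Acta1*.

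Among called genes of at least 5 log2 CPM whose stages did not overlap, 381 of 4621 were at least 2 times as abundant, in raw CPM, in muscle spots as in the other spots in every section of the stage where they were higher, 336 of them higher at E18.5 and 45 at E14.5. The condition thus covered 2 sections for a rise and 3 for a fall, under a cut that moved with stage. The 4621 genes were not counted by direction, so 336 and 45 do not show whether muscle-rich genes rose more often than others. The largest rise of the 381 genes was that of *Eef1a2* (ENSMUSG00000016349, GRCm38 chr2:181141758-181157015), the translation elongation factor of differentiated muscle and neurons. Its UMIs numbered 11, 12 and 3 in the E14.5 sections and 38275 and 34397 in the E18.5 sections, that is 0.450, 0.331 and 0.188 CPM at E14.5 and 684 and 732 at E18.5 (log2 fold change 11.02, SE 0.18, adjusted p = 1.8e-07). *Mybpc2* (GRCm38 chr7:44501699-44524715), fast myosin-binding protein C, followed with 2.54, 2.59 and 2.76 CPM at E14.5 and 1193 and 1438 at E18.5 (log2 fold change 8.97, SE 0.15, adjusted p = 1.8e-07). Both genes were close to absent at E14.5 and among the abundant transcripts at E18.5. *Smtnl1*, a smoothelin-like protein of muscle, held 2.21, 1.32 and 1.57 CPM at E14.5 and 628 and 697 at E18.5 (log2 fold change 8.62, SE 0.19). Parvalbumin (*Pvalb*), the calcium buffer of fast fibers, held 3.64, 3.17 and 1.94 CPM at E14.5 and 276 and 648 at E18.5 (log2 fold change 7.26, SE 0.41), with the 2 E18.5 sections further apart than for any other of these 10 genes. The other 6 rises were those of *Clic5* (6.91), a chloride channel family member, *Gpd1* (6.84), the glycerol phosphate shuttle enzyme, *Asb12* (6.84), *Mettl21e* (6.58), *Prr33* (6.40) and *Tmem52* (6.40), all with adjusted p of at most 9.2e-07.

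The largest fall of a muscle-rich gene was that of the cytokine gene *Il17b*, which held 151, 118 and 141 CPM at E14.5 and 9.76 and 6.36 at E18.5 (log2 fold change −4.08, SE 0.21, adjusted p = 3.1e-06). *Dcx*, doublecortin, a microtubule-binding protein best known from migrating neurons, held 123, 94.3 and 92.7 CPM at E14.5 and 11.9 and 8.47 at E18.5 (log2 fold change −3.34, SE 0.20, adjusted p = 6.3e-06). The α-cardiac myosin gene *Myh6* held 95.7, 55.5 and 81.2 CPM at E14.5 and 9.51 and 8.60 at E18.5 (log2 fold change −3.09, SE 0.24, adjusted p = 2.0e-05). In all 3 the lowest E14.5 section stood at least 5 times above the higher E18.5 section. Follistatin (*Fst*), the secreted antagonist of activin and myostatin, fell by 2.43 (SE 0.11) on the log2 scale. Further falls were those of *Mymx* (−1.88), the fusion micropeptide myomixer, *Msc* (−1.80), a bHLH repressor of myogenic factors, *Chrng* (−1.70), the fetal acetylcholine receptor subunit, and *Erbb3* (−1.71), a neuregulin receptor, with *Magel2* (−1.81) and *Pnmal2* (−1.69). *Erbb3* also counts among the Schwann cell markers below.

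**Figure D2:**
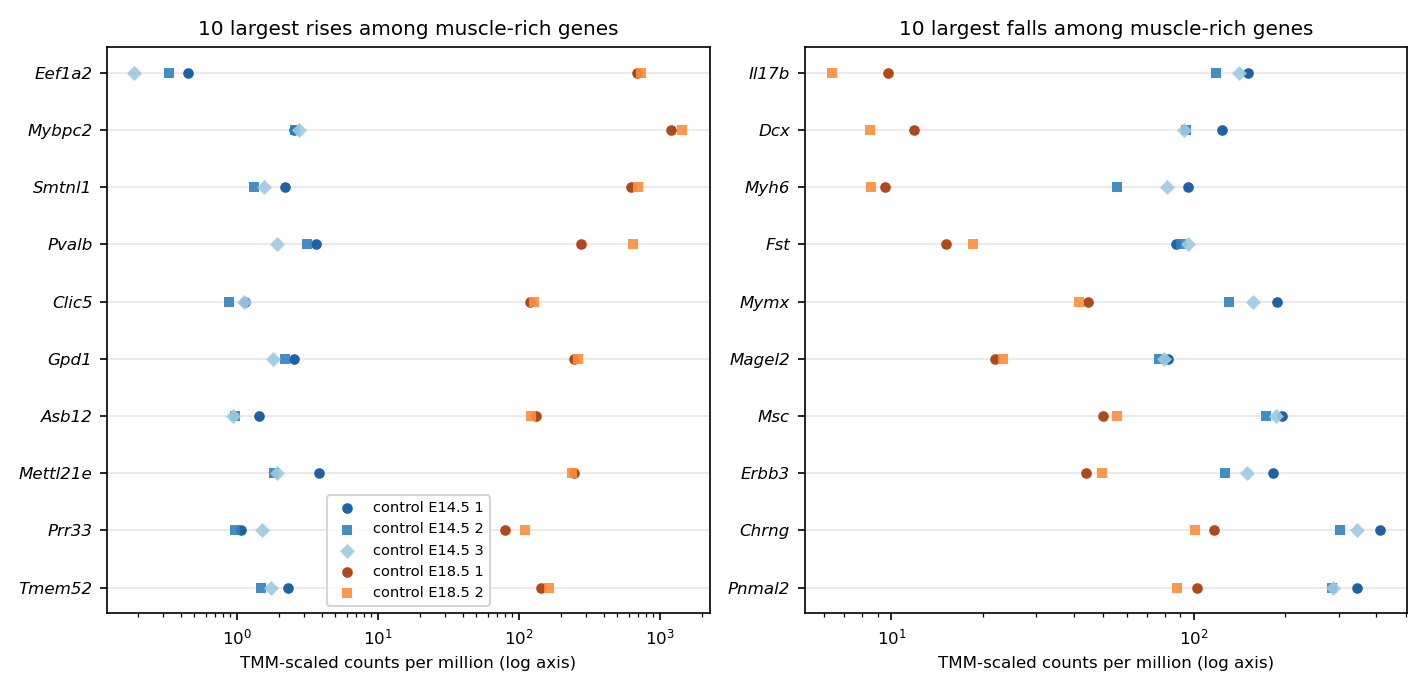
TMM-scaled CPM (log axis) in each of the 5 control sections, for the 10 largest rises (left) and the 10 largest falls (right) among called genes that are rich in muscle spots and, by the choice of genes, do not overlap between stages. The 3 E14.5 sections (blue) and the 2 E18.5 sections (orange) are shown by section, and *Eef1a2* goes from below 1 CPM to 684 and 732 CPM.

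Of the 8 myosin heavy chain genes tested, 5 rose and 2 fell. Perinatal myosin (*Myh8*) held 4361, 3156 and 3407 CPM at E14.5 and 46523 and 44731 at E18.5 (log2 fold change 3.65, SE 0.17, adjusted p = 2.1e-06), while embryonic myosin (*Myh3*) held 5635, 4484 and 4307 CPM at E14.5 and 5906 and 5062 at E18.5, overlapping ranges with a log2 fold change of 0.19, SE 0.15, adjusted p = 0.3. Fast IIx myosin (*Myh1*) held 125, 93.7 and 113 CPM at E14.5 and 1661 and 2462 at E18.5, fast IIa myosin (*Myh2*) 0.737, 0.634 and 0.501 CPM at E14.5 and 43.7 and 71.5 at E18.5 and fast IIb myosin (*Myh4*) 31.7, 28.9 and 23.4 CPM at E14.5 and 234 and 337 at E18.5, with log2 fold changes of 4.22 (SE 0.20), 6.49 (SE 0.27) and 3.34 (SE 0.18). All 3 adult fast myosins were called, *Myh1* and *Myh2* with larger rises than *Acta1* and *Myh4* within the range of the score genes. Besides *Myh6*, the other member that fell was *Myh7b* (−1.20, SE 0.14). These genes, other than *Myh6*, *Myh7* and *Myh7b*, lie side by side on chromosome 11 (GRCm38), from *Myh3* (GRCm38 chr11:67078273-67102291) through *Myh2* (GRCm38 chr11:67171027-67197517) and *Myh1* (GRCm38 chr11:67200102-67224577) to *Myh8* (GRCm38 chr11:67277124-67308634), and similar sequences could share reads where probes do not separate them.

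Light chains, troponins and binding proteins of the filaments moved unevenly. Of 9 light chain and kinase genes 7 rose, among them the slow regulatory light chain *Myl2* (34.2, 30.008 and 27.3 CPM at E14.5 and 482 and 614 at E18.5, log2 fold change 4.16, SE 0.14, adjusted p = 8.3e-07), and *Myl4*, the embryonic light chain, fell by 0.39 (SE 0.15, adjusted p = 0.044), a call that was lost in 9 alternatives. Of 9 troponin and tropomyosin genes 6 rose and 1 fell. Fast troponin I (*Tnni2*) held 125, 96.5 and 111 CPM at E14.5 and 3179 and 3535 at E18.5 (log2 fold change 4.92, SE 0.15, adjusted p = 5.7e-07), while slow troponin I (*Tnni1*) held 2588, 1929 and 1942 CPM at E14.5 and 1598 and 1717 at E18.5, with no call (log2 fold change −0.38, SE 0.15, adjusted p = 0.06). Fast troponin C (*Tnnc2*, 3.34, SE 0.15) rose as well, whereas the slow form *Tnnc1* was at −0.25 (SE 0.13, adjusted p = 0.13). Slow troponin T (*Tnnt1*, 0.60, SE 0.16, adjusted p = 0.01) and cardiac troponin I (*Tnni3*, 1.23, SE 0.29, adjusted p = 0.0061) were called higher, the former not in 3 of the alternatives. *Tnni3* is scarce: it also counts among the cardiomyocyte markers below, which together summed to 17.7 and 15.4 CPM at E18.5. Cardiac troponin T (*Tnnt2*), which early skeletal myotubes also use, held 2061, 1614 and 1727 CPM at E14.5 and 831 and 964 at E18.5, a fall of 1.004 (SE 0.14, adjusted p = 4.7e-04). *Mybpc1*, slow myosin-binding protein C, rose by 4.19 (SE 0.16), and *Mybph*, myosin-binding protein H, held 965, 758 and 872 CPM at E14.5 and 468 and 405 at E18.5 (log2 fold change −0.99, SE 0.13, adjusted p = 3.9e-04).

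To follow such shifts within a section, the log2 ratio of the UMIs of a late over an early isoform was taken for 35 pairs whose genes were both in the fit. A higher ratio can come from a rise of the late gene without a fall of the early one. Early genes such as *Mybpc1*, *Myoz2* and *Casq2* rose themselves, whereas others such as *Chrng* and *Tnnt2* fell. *Myh3* is the early gene for *Myh1*, *Myh2* and *Myh4* alike, so the pairs are not independent. A ratio between genes depends on their probes, so only its change between sections is read. In 4 of the pairs 1 gene is among those that chose the spots (*Tnnt3* over *Tnnt1* and over *Tnnt2*, *Actn3* over *Actn2* and *Ryr1* over *Ryr3*), and these are given as descriptions only. Of the other 31 pairs, 29 had a higher ratio in both E18.5 sections than in all 3 E14.5 sections, 28 of them by more than 2-fold on average, 1 was lower in both, and in 1 the stages overlapped. With the 4 pairs included, 33 of 35 were higher. The 79.4% given above is for single genes in either direction, and no matching share was computed for ratios. The ratio of *Tnni2* to *Tnni1* was −4.37, −4.32 and −4.13 at E14.5 and 0.99 and 1.04 at E18.5. The ratio of *Cox7a1* to *Cox7a2*, the heart and skeletal muscle form of a cytochrome oxidase subunit over the general form, was −3.76, −3.83 and −3.83 against 0.59 and 0.74. For the glucose transporters, *Slc2a4* over *Slc2a1* went from −0.66, −1.23 and −0.72 to 3.39 and 3.52, the insulin-responsive GLUT4 over the general transporter GLUT1. In these 3 pairs the mean ratio rose by 5.29, 4.47 and 4.32.

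The acetylcholine receptor pair *Chrne* over *Chrng*, adult over fetal subunit, moved from −9.01, −8.75 and −8.67 to −4.47 and −4.19. *Eef1a2* over *Eef1a1* had the largest change of all pairs, from −12.97, −13.32 and −13.98 to −1.95 and −1.57. A smaller shift was that of dystrophin over utrophin (*Dmd* over *Utrn*), from 0.53, 0.50 and 0.33 to 1.16 and 1.05. The ryanodine receptor pair *Ryr1* over *Ryr3* stood at 2.94, 3.04 and 3.18 against 3.63 and 3.89, where *Ryr1* is a gene that chose the spots. *Myh4* over *Myh8* overlapped between stages, at −7.10, −6.77 and −7.18 against −7.63 and −7.05, and both genes rose, by 3.34 and 3.65.

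**Figure D3:**
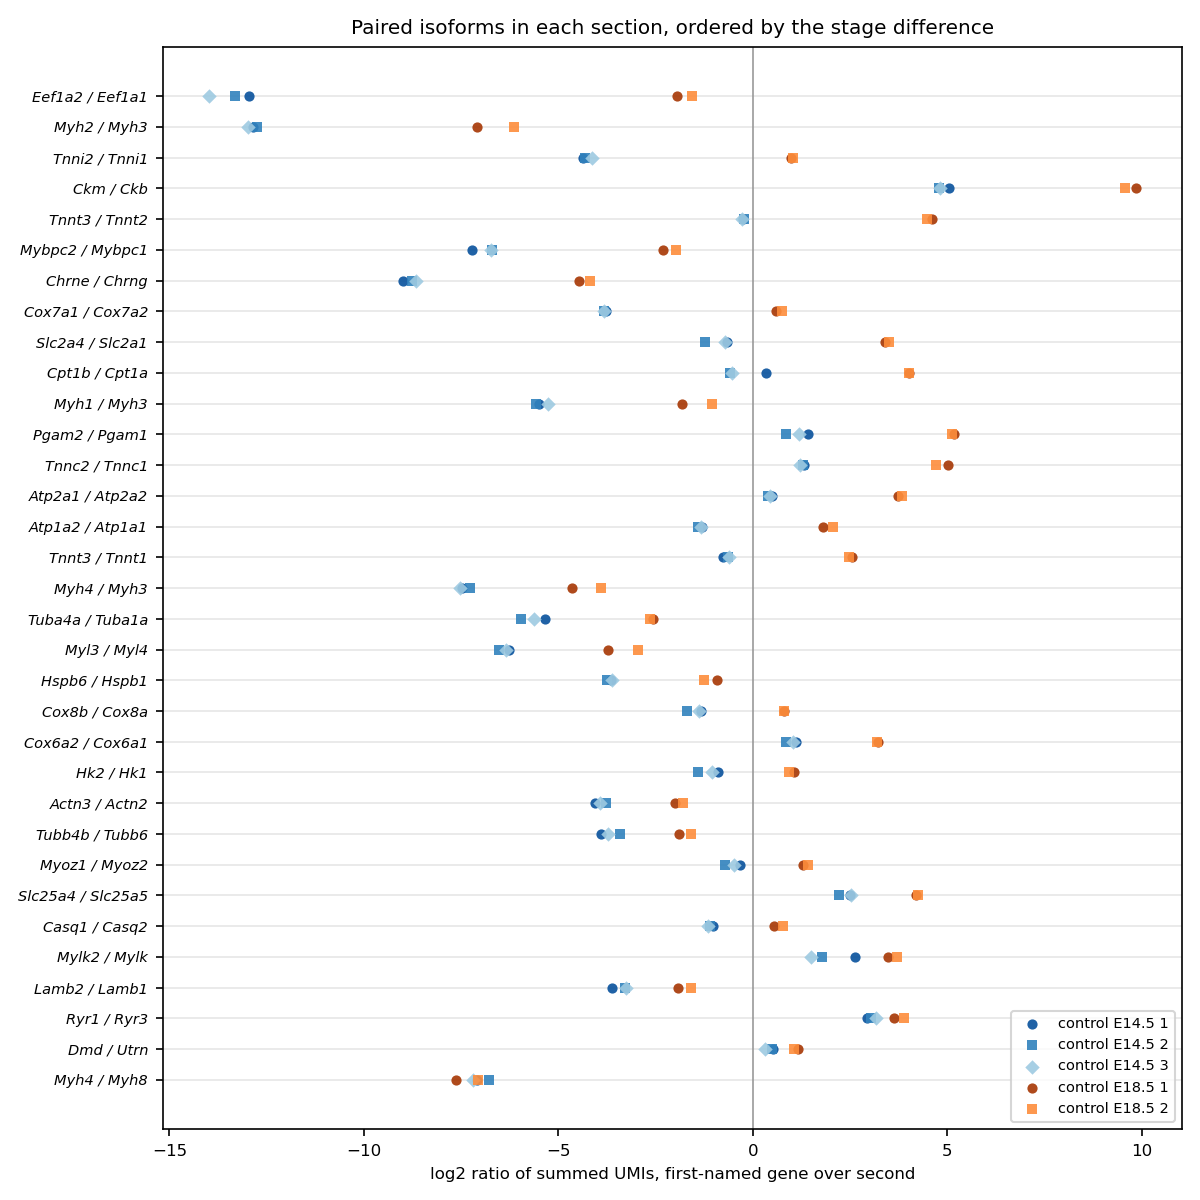
Log2 ratio of summed UMIs of a late over an early isoform in each of the 5 control sections, for 33 of the 35 pairs, ordered by the difference between stages. The 4 pairs with a gene that chose the spots are drawn too. In 32 of those drawn both E18.5 sections (orange) lie to the right of all E14.5 sections (blue), and *Myh4* over *Myh8* overlaps.

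The change in isoform share was read spot by spot for 2 pairs, over muscle spots with at least 20 UMIs of the pair. In both pairs the late gene rose, *Myh8* by 3.65 and *Tnni2* by 4.92 on the log2 scale. The early genes *Myh3* (0.19) and *Tnni1* (−0.38) were not called. At E14.5 *Myh3* made up a median of 54.9%, 56.6% and 55.4% of the *Myh3* and *Myh8* UMIs of a spot, with 10th and 90th percentiles of 45.3% and 72.8%, 46.9% and 75.8%, and 47.5% and 67.6%. At E18.5 the medians were 9.40% and 9.001%, and the 10th and 90th percentiles 4.96% and 19.9% in control 1 and 5.18% and 17.7% in control 2. The 10th percentile of every E14.5 section was thus above the 90th of every E18.5 section. *Tnni1* made up a median of 95.7%, 95.4% and 94.9% of the *Tnni1* and *Tnni2* UMIs at E14.5, with 10th percentiles of 91.9%, 91.8% and 89.9%. At E18.5 it made up 30.97% and 31.6%, and its spots spread more widely, from 16.3% to 51.0% and from 18.02% to 47.6% between the 10th and 90th percentiles. Spots of a section are not replicates, hold several fibers each, and were not tested.

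**Figure D4:**
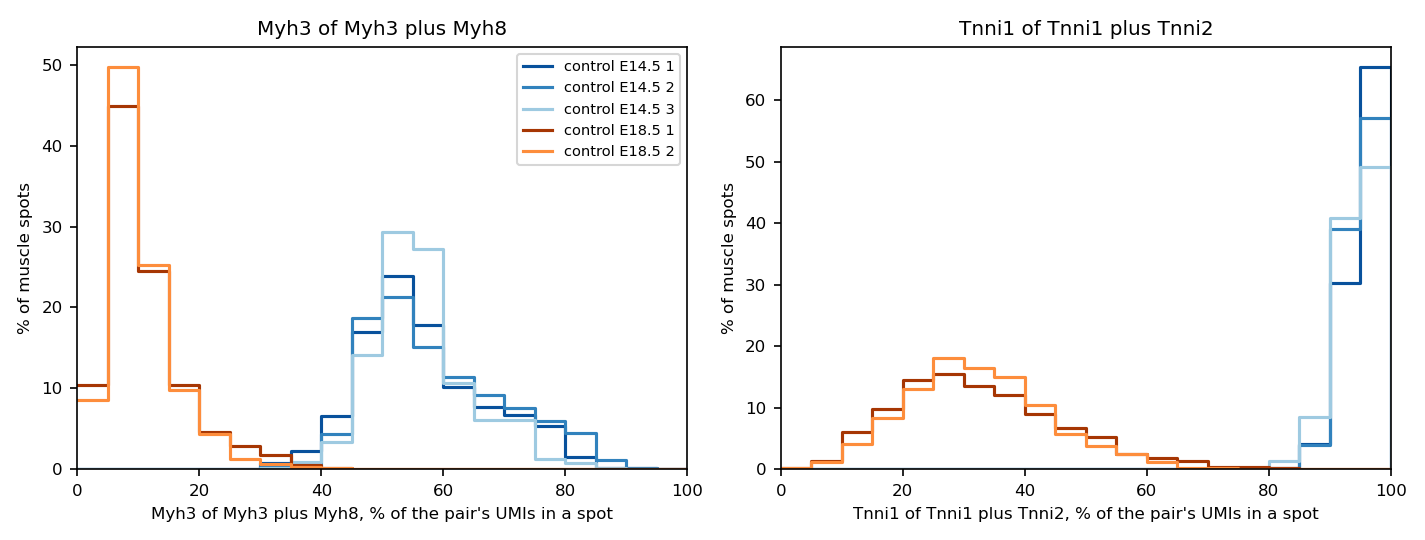
Share of the muscle spots with at least 20 UMIs of the pair (y axis, %), in steps of 5%, 1 line per section. The x axis is the percentage of the pair's UMIs that come from *Myh3* (left, over *Myh3* plus *Myh8*) or *Tnni1* (right, over *Tnni1* plus *Tnni2*). The E14.5 lines (blue) peak at 50% to 55% and above 95%, and the E18.5 lines (orange) at 5% to 10% and 25% to 30%.

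Genes of the Z-disc, the M-band and myofibril assembly rose almost without exception, 44 of 47 tested with none lower, against 34.1% of all genes. Their median log2 fold change was 2.42, beside −0.03 for all genes, 22 lay within the range of the score genes and 9 above it. The largest rises were those of the small heat shock protein *Hspb6* (16.4, 13.5 and 13.8 CPM at E14.5 and 597 and 591 at E18.5, log2 fold change 5.35, SE 0.12, adjusted p = 2.0e-07), the calcineurin-binding Z-disc protein myozenin 1 (*Myoz1*, 144, 88.4 and 107 CPM at E14.5 and 3103 and 3368 at E18.5, log2 fold change 4.84, SE 0.21, adjusted p = 1.6e-06) and the stretch-responsive *Ankrd2* (4.77, SE 0.17). *Kbtbd13*, a kelch protein of the sarcomere, rose by 4.52 (SE 0.26) from 7, 8 and 6 UMIs. α-Actinin 3 (*Actn3*), the fast fiber form, held 90.3, 79.2 and 77.4 CPM at E14.5 and 1188 and 1371 at E18.5 and rose by 3.96 (SE 0.12), while its partner in the score, *Actn2*, stood 1.93 higher.

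Excitation-contraction coupling, the release of calcium from the sarcoplasmic reticulum on depolarization, and calcium handling gave 28 of 30 genes higher and 1 lower, with a median of 2.37. Among all genes 34.1% were called higher. Besides *Pvalb*, calsequestrin 1 (*Casq1*), the calcium store protein of fast fibers, held 281, 186 and 183 CPM at E14.5 and 4249.6 and 4088 at E18.5 (log2 fold change 4.27, SE 0.21, adjusted p = 2.5e-06), the fast calcium pump *Atp2a1* 1194, 794 and 919 CPM at E14.5 and 13675 and 14711 at E18.5 (log2 fold change 3.87, SE 0.19, adjusted p = 2.4e-06) and the triad protein mitsugumin 29 (*Sypl2*) 89.7, 57.3 and 65.9 CPM at E14.5 and 1153 and 1141 at E18.5 (log2 fold change 4.02). Of the slow and cardiac forms, *Casq2* rose by 2.53 (SE 0.18) and *Atp2a2* by 0.54 (SE 0.14). The only member that fell was *Fkbp1a*, the FK506-binding protein that binds ryanodine receptors and other targets in many cells (−0.90, SE 0.17, adjusted p = 0.0021).

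Of 19 genes of membrane excitability 17 rose and 1 fell, with a median of 2.86, against 34.1% higher among all genes. The potassium channel *Kcna7* rose by 4.70 (SE 0.20). The T-type calcium channel *Cacna1h*, which is expressed in immature muscle, held 26.3, 24.7 and 29.7 CPM at E14.5 and 5.54 and 6.53 at E18.5 (log2 fold change −2.15, SE 0.13, adjusted p = 6.9e-06). The dystrophin complex, which links the cytoskeleton to the matrix, and membrane repair genes rose in 20 of 21 cases with none lower, but with a lower median of 1.16. Among those that rose were dystrobrevin α (*Dtna*, 2.62, SE 0.14), sarcospan (*Sspn*, 2.43, SE 0.12) and dystrophin (*Dmd*, 2.08, SE 0.11).

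Most genes of energy metabolism rose too, against 34.1% called higher among all genes. In the nuclear-encoded respiratory chain 71 of 74 genes were called higher and 1 lower, with a median of 1.87 and 66 of them at least 2-fold. This median lay below the range of the score genes, with 34 genes within that range and 1 above it. *Cox7a1* held 18.8, 15.4 and 13.3 CPM at E14.5 and 1078 and 1079 at E18.5 (log2 fold change 6.08, SE 0.16, adjusted p = 3.2e-07) and *Cox8b*, another muscle form of a cytochrome oxidase subunit, 107, 78.5 and 90.3 CPM at E14.5 and 785 and 779.7 at E18.5 (log2 fold change 3.09, SE 0.14, adjusted p = 1.8e-06). The ATP synthase genes *Atp5g1* and *Atp5f1* rose by 3.50 (SE 0.09) and 3.39 (SE 0.09). The member that was lower, *Cox7b2*, a form known from testis, had 14, 17 and 4 UMIs at E14.5 and 6 and 4 at E18.5, and its call was lost in 1 alternative.

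Of the citric acid cycle and pyruvate genes 22 of 24 rose and 2 fell (median 2.17), led by the pyruvate dehydrogenase kinases *Pdk4* (2.66, 2.10 and 1.69 CPM at E14.5 and 62.4 and 70.0 at E18.5, log2 fold change 4.92, SE 0.15, adjusted p = 6.1e-07) and *Pdk2* (3.51, SE 0.09). The 2 that fell, *Suclg2* (−0.70) and *Idh3b* (−0.50), have partners that rose in the same enzymes, such as *Idh3a* (2.94, SE 0.11). Fatty acid use and myoglobin gave 32 of 33 higher and 1 lower (median 2.19). Myoglobin (*Mb*), the oxygen store of oxidative fibers, held 5.73, 4.16 and 3.76 CPM at E14.5 and 100.96 and 183 at E18.5 (log2 fold change 4.95, SE 0.28, adjusted p = 5.3e-06), and the muscle carnitine transferase *Cpt1b* 17.6, 10.5 and 11.7 CPM at E14.5 and 299.6 and 298 at E18.5 (log2 fold change 4.49, SE 0.20, adjusted p = 1.8e-06), while its liver form *Cpt1a* was not called (0.25, adjusted p = 0.068). The member that fell was *Nrf1* (−0.93, SE 0.07), a transcription factor for mitochondrial and many other genes.

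Glycogen use and glycolysis rose in 22 of 29 genes and fell in 3 (median 2.03). The muscle forms rose, among them glycogen phosphorylase *Pygm* (315, 202 and 227 CPM at E14.5 and 3794 and 3861 at E18.5, log2 fold change 3.95, SE 0.19, adjusted p = 2.7e-06), its kinase subunit *Phkg1* (5.34, SE 0.14) and phosphoglycerate mutase *Pgam2* (3.22, SE 0.16). The general forms *Pgam1* (−0.76, SE 0.09) and *Pfkl*, liver phosphofructokinase (−0.75, SE 0.10), fell. Of 11 genes of phosphagen and nucleotide energy transfer 8 rose and none fell: mitochondrial creatine kinase *Ckmt2* held 56.7, 35.4 and 35.4 CPM at E14.5 and 2807 and 2849.7 at E18.5 (log2 fold change 6.05, SE 0.24, adjusted p = 1.2e-06), cytosolic muscle creatine kinase *Ckm* 1269.5, 862 and 895 CPM at E14.5 and 26682 and 25064 at E18.5 (log2 fold change 4.68, SE 0.20, adjusted p = 1.5e-06), and the brain form *Ckb* was not called (−0.12, adjusted p = 0.38).

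Genes of DNA replication and mitosis fell throughout. All 40 tested S phase genes and 46 of 47 G2M genes were lower at E18.5, against 34.4% of all genes, with medians of −1.70 and −1.67. *Hells*, a chromatin remodeller of replicating cells, held 6.06, 7.50 and 7.64 CPM at E14.5 and 1.34 and 1.11 at E18.5 (log2 fold change −2.52, SE 0.21, adjusted p = 3.1e-05), and the replication licensing factor *Cdc6* 68.8, 73.8 and 68.1 CPM at E14.5 and 16.5 and 11.3 at E18.5 (log2 fold change −2.34, SE 0.16, adjusted p = 1.3e-05). *Chaf1b* (−2.25), *Bub1* (−2.32), *Cdca8* (−2.18) and *Top2a* (−2.04), for chromatin assembly and chromosome segregation, fell by 4.12-fold to 5.00-fold. The exception among G2M genes was the tubulin *Tubb4b*, which rose by 0.36 (SE 0.08). Among the largest falls of genes of at least 5 log2 CPM that were not muscle-rich were also cyclin E1 (*Ccne1*, 335, 283 and 268 CPM at E14.5 and 52.9 and 33.6 at E18.5, log2 fold change −2.77, SE 0.21, adjusted p = 2.0e-05) and the PCNA-associated factor *Pclaf* (−2.63, SE 0.24). Of 37 replication-dependent histone genes 27 fell and 2 rose (median −1.29), but copies of one histone are nearly identical and their probes may not tell them apart.

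Promoters were searched for short motifs, in 1 window per gene (250 bases before to 50 after the start, RefSeq, GRCm38.p6) that was at hand for 11040 tested genes. An E2F site (TTTGGCGC, TTTCGCGC or TTTCCCGC on either strand) was in 3.33% of them, in 5.99% of those of called genes at least 2-fold higher at E14.5, in 1.52% of those at least 2-fold higher at E18.5, in 10 of the 28 windows of S phase genes and in 2 of the 41 windows of G2M genes. A MEF2 site was in 1.86% of all windows. It was in 3.62% of those at least 2-fold higher at E18.5 and in 1.55% of those at least 2-fold higher at E14.5. Z-disc and assembly genes had it in 6 of 35 windows, but respiratory chain genes in 0 of 58. An E-box CAGCTG, which reads the same on both strands, was in 15.9% of all windows, in 19.5% of those at least 2-fold higher at E18.5 and in 9 of 18 windows of the coupling genes, but in 6 of 58 windows of respiratory chain genes. The ERR element TCAAGGTCA was in 0.245% of all windows and in 2 of the 58 windows of respiratory chain genes, and MCAT (GGAATG) in 12.2% of all windows and 14.1% of those at least 2-fold higher at E18.5. The shares are descriptions, and a match is not a shown binding site.

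Part of 6 of these windows is printed below, with the site in capitals and up to 30 bases on each side: E2F sites of *Hells* and *Cdc6*, which fell, MEF2 sites of *Myh8* and *Pgam2*, which rose, and E-boxes of *Atp2a1*, which rose, and *Chrng*, which fell. All are on the strand of the gene, 5′ to 3′. The E-box thus occurs in genes that moved in opposite directions.
Hells E2F, chr19:38930898-38930965, strand +: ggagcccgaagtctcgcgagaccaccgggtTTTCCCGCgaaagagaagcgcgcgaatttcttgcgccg
Cdc6 E2F, chr11:98907983-98908050, strand +: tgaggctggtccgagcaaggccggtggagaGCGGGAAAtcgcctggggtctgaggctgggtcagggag
Myh8 MEF2, chr11:67276995-67277064, strand +: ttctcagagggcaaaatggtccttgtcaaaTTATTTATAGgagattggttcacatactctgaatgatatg
Pgam2 MEF2, chr11:5803837-5803906, strand −: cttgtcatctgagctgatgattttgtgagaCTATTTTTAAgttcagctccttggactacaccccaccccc
Atp2a1 E-box, chr7:126463093-126463158, strand −: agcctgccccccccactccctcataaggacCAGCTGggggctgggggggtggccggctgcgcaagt
Chrng E-box, chr1:87205626-87205714, strand +: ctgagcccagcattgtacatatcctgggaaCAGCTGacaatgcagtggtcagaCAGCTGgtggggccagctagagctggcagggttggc

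Chromatin and splicing regulators mostly fell. Of 30 chromatin remodelling and DNA methylation genes 23 fell and 7 rose (median −0.60). Among all genes 34.4% were lower and 34.1% higher at E18.5. *Hmga2*, a chromatin protein of fetal growth, held 23.9, 22.2 and 22.9 CPM at E14.5 and 2.61 and 2.9997 at E18.5 (log2 fold change −3.04, SE 0.12, adjusted p = 1.3e-06), the maintenance methyltransferase *Dnmt1* fell by 1.72 (SE 0.11) and the Polycomb methyltransferase *Ezh2* by 1.61 (SE 0.12), whereas its paralog *Ezh1* rose by 0.86 (SE 0.12), as did *Tet2* (0.90) and *Hdac5* (1.06). Of 52 splicing regulators 35 fell and 8 rose (median −0.55). *Srsf3* (−2.13, SE 0.19) and *Hnrnpa1* (501, 517 and 509.6 CPM at E14.5 and 159.7 and 137 at E18.5, log2 fold change −1.78), general splicing factors, fell. *Rbm38* (2.65, SE 0.09), *Rbfox1* (29.3, 23.5 and 34.3 CPM at E14.5 and 117 and 129.9 at E18.5, log2 fold change 2.10), *Mbnl1* (1.71) and *Mbnl2* (1.63), RNA-binding proteins of differentiated muscle, rose.

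Of 42 satellite cell and myogenic regulators 17 rose, 15 fell and 10 were not called, with a median of 0.12, shares near the 34.1% and 34.4% of all genes. *Myf6* (MRF4), the myogenic factor of maturing fibers, held 116, 86.9 and 104 CPM at E14.5 and 405 and 446 at E18.5 (log2 fold change 2.06, SE 0.13, adjusted p = 7.8e-06), whereas myogenin (*Myog*), which drives differentiation of myoblasts, held 771, 609 and 687 CPM at E14.5 and 309 and 311 at E18.5 (log2 fold change −1.15, SE 0.12, adjusted p = 1.0e-04). The nuclear factor *Nfic* rose by 1.94 (SE 0.08), and N-cadherin (*Cdh2*) fell by 2.11 (SE 0.12). Of 32 growth signal and imprinted genes 17 fell and 9 rose (median −0.38), against 34.4% lower and 34.1% higher at E18.5 among all genes. *Igf2bp1*, an RNA-binding protein of fetal tissue, held 140.0, 127 and 126 CPM at E14.5 and 31.8 and 26.2 at E18.5 (log2 fold change −2.18, SE 0.11, adjusted p = 3.0e-06), and myostatin (*Mstn*), the muscle growth inhibitor, 67.1, 42.9 and 45.0 CPM at E14.5 and 182 and 177 at E18.5 (log2 fold change 1.79, SE 0.18, adjusted p = 7.4e-05), while its antagonist *Fst* fell. Follistatin-like 3 (*Fstl3*) went the other way from *Fst*, with the largest rise of the list (2.44, SE 0.30, adjusted p = 2.1e-04).

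Of 25 endplate genes 8 rose and 10 fell, with a median of −0.04, again near the shares of all genes. The fetal subunit *Chrng* held 410.0, 304 and 345 CPM at E14.5 and 117 and 100.86 at E18.5 (log2 fold change −1.70, SE 0.15, adjusted p = 3.8e-05), and the adult subunit *Chrne* rose by 2.83 (SE 0.21) from 19, 25 and 13 UMIs to 294 and 260. *Chrna9*, a receptor subunit known from hair cells, held 1.84, 1.38 and 1.25 CPM at E14.5 and 67.6 and 71.7 at E18.5 (log2 fold change 5.53, SE 0.14, adjusted p = 3.0e-07), and *Lrtm1*, a leucine-rich transmembrane protein, 29.1, 21.1 and 26.6 CPM at E14.5 and 184 and 207 at E18.5 (log2 fold change 2.94, SE 0.13, adjusted p = 2.1e-06). *Lamb2*, the laminin chain of the synaptic cleft, rose by 1.79 (SE 0.12), and *Phldb2* (−1.55) and the ligand *Nrg1* (−1.43) fell. Of 11 myotendinous junction genes 9 rose and 1 fell (median 0.96), against 34.1% higher and 34.4% lower among all genes. The integrin-binding melusin (*Itgb1bp2*) held 658, 473 and 549 CPM at E14.5 and 2306 and 2107 at E18.5 (log2 fold change 1.98, SE 0.15, adjusted p = 1.8e-05) and the matrix gene *Frem1* 57.5, 63.4 and 62.8 CPM at E14.5 and 10.3 and 10.8 at E18.5 (log2 fold change −2.54, SE 0.09, adjusted p = 9.7e-07).

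In the cytoskeleton 13 of 27 genes fell and 9 rose (median −0.59), against 34.4% lower and 34.1% higher at E18.5 among all genes. *Marcksl1* (−1.99, SE 0.09), *Tubb2b* (−1.73), *Tubb2a* (−1.67) and *Tubb6* (1432, 1105 and 1207 CPM at E14.5 and 485 and 359 at E18.5, log2 fold change −1.57) fell, and the intermediate filament genes synemin (*Synm*, 4.75, SE 0.15) and syncoilin (*Sync*, 1.85, SE 0.12) and the tubulins *Tuba8* (6.51, SE 0.60) and *Tuba4a* (2.17) rose. *Tuba8* had 0, 11 and 4 UMIs at E14.5 and 623 and 1161 at E18.5. In protein synthesis 4 of 8 genes rose and 4 fell, and apart from *Eef1a2* none changed by 2-fold: *Eef1a1*, its general form, held 3764, 3519 and 3544 CPM at E14.5 and 2644 and 2166 at E18.5 (log2 fold change −0.59, SE 0.12, adjusted p = 0.0039). The list of ubiquitin ligases and autophagy genes linked to atrophy had 16 of 19 higher and none lower (median 1.47), with *Asb5* (5.85, SE 0.33, from 11, 5 and 5 UMIs), *Fbxo40* (3.39, SE 0.14), *Cavin4* (3.39) and *Asb8* (2.66) in the lead. These 4 are known from normal muscle, as adaptor proteins of ubiquitin ligases or, for *Cavin4*, of caveolae.

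The list of glucocorticoid and thyroid hormone response, which also holds receptors and enzymes of these hormones, had 16 of 20 genes higher and 1 lower (median 1.90). Its median ratios of muscle to other spots were 0.75 at E14.5 and 0.92 at E18.5. Among all genes 34.1% were called higher and 34.4% lower at E18.5. *Zbtb16* had 2, 5 and 0 UMIs at E14.5 and 1083 and 847 at E18.5 (log2 fold change 7.64, SE 0.33, adjusted p = 1.6e-06). *Klf9*, a target of both hormones, held 0.818, 1.21 and 1.5028 CPM at E14.5 and 35.4 and 51.7 at E18.5 (log2 fold change 5.23, SE 0.24, adjusted p = 2.1e-06), and *Hsd11b1*, which regenerates active glucocorticoid, 1.43, 0.938 and 1.31 CPM at E14.5 and 9.45 and 9.89 at E18.5 (log2 fold change 2.9977, SE 0.21, adjusted p = 1.3e-05). *Dio3*, the deiodinase that inactivates thyroid hormone, was the member that fell, from 41, 75 and 29 UMIs to 19 and 13 (log2 fold change −2.58, SE 0.32, adjusted p = 2.2e-04). Antigen presentation and interferon-inducible genes rose in 22 of 24 cases with none lower (median 1.47), among them *Gbp3* (1.31, 0.993 and 0.814 CPM at E14.5 and 9.76 and 16.0 at E18.5, log2 fold change 3.61, SE 0.28, adjusted p = 2.1e-05) and *Irf7* (0.941, 1.08 and 1.13 CPM at E14.5 and 5.27 and 14.3 at E18.5, log2 fold change 3.22, SE 0.41, adjusted p = 2.8e-04). They were less abundant in muscle than in the other spots of both stages, with median ratios of 0.51 and 0.42. Of 63 basement membrane and collagen genes 40 rose and 7 fell (median 0.73), and these too lay mostly outside muscle (median ratios 0.66 and 0.35).

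**Figure D5:**
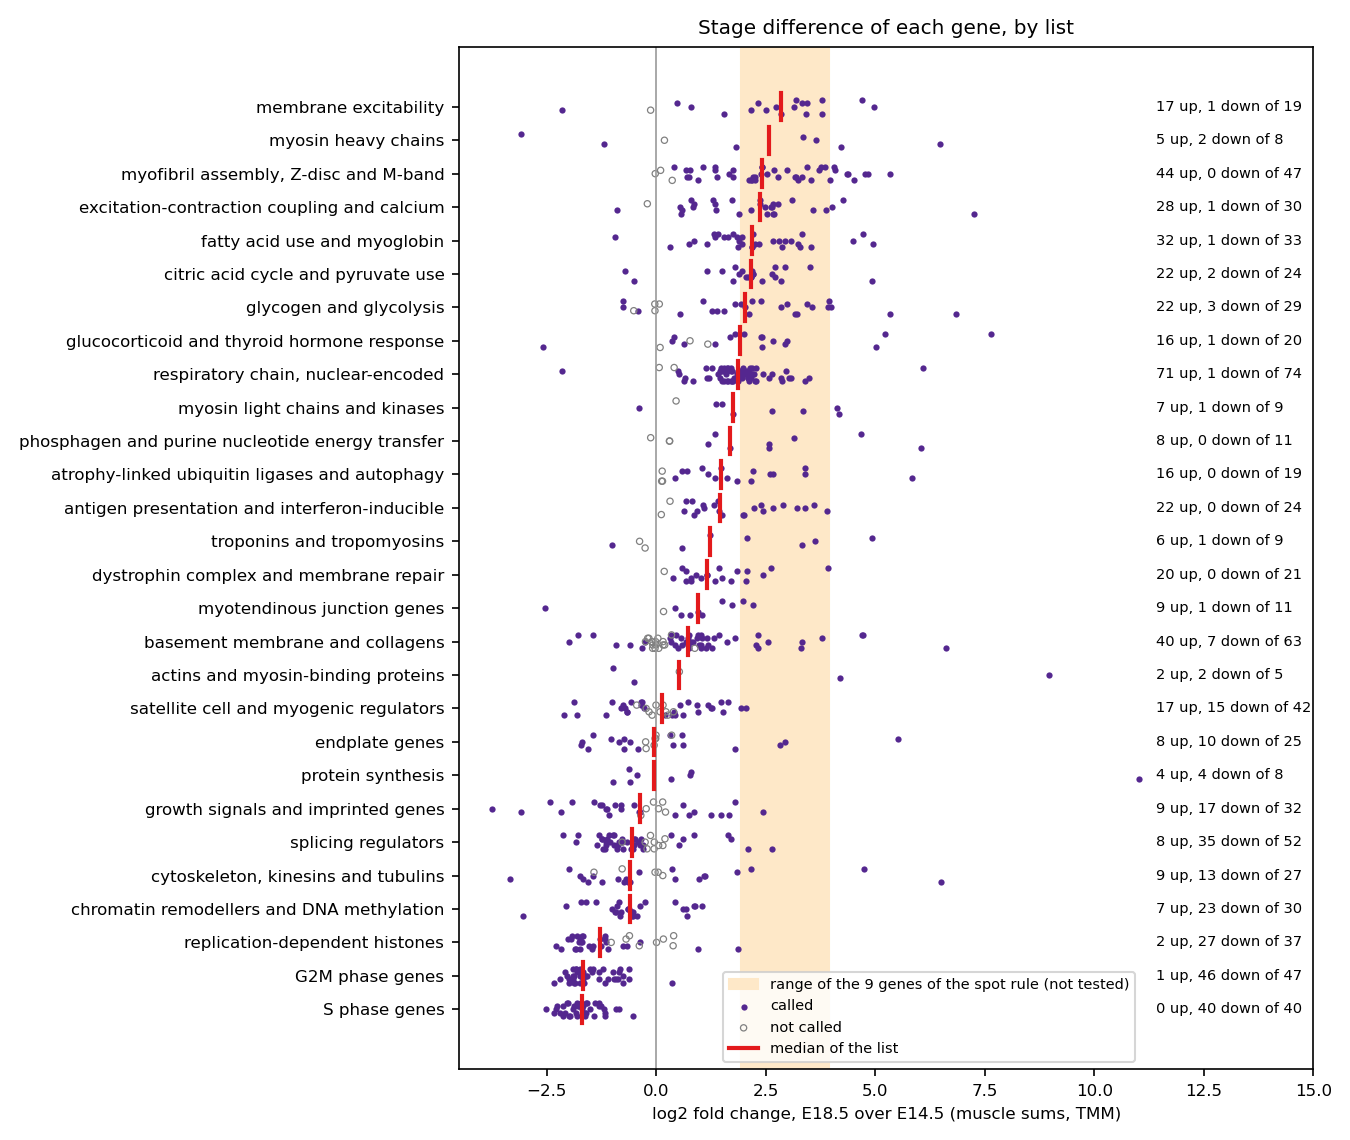
Log2 fold change of each tested gene (x axis), E18.5 over E14.5, by gene list, with called genes filled, genes not called open and the list median as a red bar. The shaded band marks the untested range of the 9 score genes, 1.93 to 3.95, and the medians run from −1.70 (S phase) to 2.86 (membrane excitability).

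Markers of other cell types moved with stage in the muscle sums, and their part in the results above was not tested. Their sums are given in TMM-scaled CPM, the scale of the fold changes. All 9 endothelial markers rose (median 1.68), and summed to 274, 400.4 and 303 CPM at E14.5 and to 1181 and 1157 at E18.5. The 7 fibroblast markers summed to 11441, 13545 and 12622 at E14.5 and to 15495 and 20439 at E18.5, with 4 called higher and 2 lower. In raw CPM the same sums were 13530, 16671 and 15705 against 11440 and 15265, ranges that overlap. Smooth muscle markers summed to 880, 692 and 743 at E14.5 and to 1022 and 950.1 at E18.5, with 3 of 6 called higher and 2 lower, and in raw CPM to 851 to 1041 and to 754 and 710, which is lower at E18.5, so that their direction depends on the scaling. The 7 macrophage markers summed to 97.2 to 121 at E14.5 and to 199 and 229 at E18.5 (4 of 6 tested called higher), and the 7 Schwann cell markers to 168 to 233 and to 89.0 and 100.8 (2 called higher and 2 lower). Tendon markers summed to 295 to 375 and to 603 and 791 (6 of 7 called higher), and mesothelial markers to 53.1 to 75.4 and to 64.9 and 200.3 (4 of 6 called higher, 1 lower). In raw CPM the tendon sums were 348, 461 and 455 at E14.5 and 445 and 591 at E18.5. The raw macrophage sums were 125, 120 and 150 against 147 and 171, and both sets overlap between stages. Cartilage markers summed to 41.4 to 66.1 at E14.5 and to 1351 and 101.1 at E18.5: *Col2a1* held 4.21, 6.73 and 6.39 CPM at E14.5 and 1085 and 56.3 at E18.5, so that its rise (6.62, SE 1.09) was carried by E18.5 control 1 and was 3.28 without it, and of the 6 cartilage markers tested 5 were called higher, 3 without that section. Erythrocyte markers summed to 109.7, 3008 and 1128 and to 955 and 934, and the embryonic globins *Hbb-y* (−6.96, SE 0.29) and *Hba-x* (−4.87, SE 0.39) fell, among 3 of the 8 called lower, or 6 without E14.5 control 1. Hepatocyte markers ranged from 0.83 (E18.5 control 2) to 731 (E14.5 control 2), with none called, and with all 7 called lower without E18.5 control 1. Cardiomyocyte markers, among which *Myh6* counts, summed to 61.1 to 100.5 and to 17.7 and 15.4. Of the 4 tested, *Tnni3* was called higher and *Myh6* lower, and *Myh6* made up most of the sum at E14.5. The 5 adipocyte markers summed to 0.19 to 0.41 at E14.5 and to 32.8 and 44.6 at E18.5. Only 1 of the 5 was tested, and it was called higher. In raw CPM the 5 summed to 24.2 and 33.3 in muscle spots at E18.5, and to 6.81 and 8.55 in the other spots. The 4 adrenal cortex markers summed to 4.13 to 34.2 and to 4.15 and 3.91. The 2 lung markers were at or near 0 in all sections, at no more than 0.06.

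Whether the stage difference in muscle spots exceeded that in the other kept spots of the same sections was tested as an interaction, in sums of both regions with the section as a block. Of 14117 genes tested, 13.6% had a larger change toward E18.5 in muscle (1921 genes) and 7.42% a larger change toward E14.5 (1048 genes). The other spots held muscle RNA too, as their scores show, so the terms compare muscle with mixed tissue. Without E14.5 control 2 the counts were 1065 and 402, without E18.5 control 2 they were 946 and 487, and without E14.5 control 1 they were 1289 and 619. Respiratory chain genes had a larger rise in muscle in 65 of 73 cases, fatty acid genes in 26 of 33, citric acid cycle genes in 20 of 24 and glycolytic genes in 14 of 29. Genes of the Z-disc and of coupling did so in 8 of 47 and 4 of 30. The median ratio of muscle to other spots in raw CPM went with this: from 1.27 to 2.23 for the respiratory chain and from 1.26 to 2.40 for the citric acid cycle, but from 3.12 to 2.99 for the Z-disc genes, which were muscle-rich at both stages. S phase and G2M genes went from 0.96 to 0.50 and from 0.99 to 0.49, and 15 of 40 and 23 of 47 had a larger fall in muscle. The regions were split in each section by sarcomere and triad genes. Z-disc and coupling genes that vary with these are muscle-rich through the rule itself. How far this limits their interaction terms was not tested.

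Single genes with the largest terms were as follows. *Wnt4*, a secreted Wnt ligand, was 0.19, 0.46 and 0.81 times as abundant in muscle as in other spots at E14.5 and 2.01 and 3.35 times at E18.5, and rose by 3.49 (SE 0.13) in muscle (9.49, 7.81 and 9.77 CPM at E14.5 and 109.8 and 91.8 at E18.5; interaction 3.37, adjusted p = 0.0062). Transglutaminase 2 (*Tgm2*, interaction 2.67) and *Fam131a* (2.63) were likewise less abundant in muscle than outside in all E14.5 sections and more abundant in both E18.5 sections. *Ndrg2* (2.49) stood at 0.48, 0.60 and 1.72 times at E14.5 and at 2.12 and 3.07 times at E18.5. The term of *Eef1a2* (4.16) rests on E14.5 control 1, was 0.35 and not called without it, and was not called by DESeq2 (2.77). Adrenal cortex markers summed to 1906 raw CPM in the other spots of that section. They summed to 5.05 to 5.99 in those of the other 4 control sections. The *Wnt4* term was 2.74 without E14.5 control 1, and still called. The part of these markers in either term was not tested. In the opposite direction stood *Myh6* (−3.98), *Fst* (−3.20), *Bex2* (−2.62), *Olfml2b* (−2.25) and *Cgref1* (−2.03). *Fst* was 2.05, 2.14 and 2.84 times as abundant in muscle as outside at E14.5 and 0.16 and 0.19 times at E18.5. *Myh6* was 3.49, 5.24 and 4.65 times as abundant at E14.5 and 0.08 and 0.69 times at E18.5, and cardiomyocyte markers summed to 211 raw CPM in the other spots of E18.5 control 1, beside 32.2 to 54.3 in those of the other 4 sections. The *Myh6* term was −2.11 without E18.5 control 1 and −5.22 without E18.5 control 2, both called, and was not called without E14.5 control 2 (−3.79). *Olfml2b* and *Cgref1* were not called between stages in muscle and stood 2.61 and 1.91 higher at E18.5 in the other spots on the log2 scale.

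Among genes of at least 5 log2 CPM that were not muscle-rich, the largest called rises were those of *Col2a1*, the matrix gene *Tnxb* (2.13, 3.34 and 4.57 CPM at E14.5 and 159.9 and 198 at E18.5, log2 fold change 5.78, SE 0.23, adjusted p = 1.3e-06), angiotensinogen (*Agt*, 5.50, SE 0.35), *Retreg1*, a receptor for autophagy of the endoplasmic reticulum (5.46, SE 0.15), and *Tpbgl* (4.52, SE 0.15). The largest falls within the same limits, which leave out the embryonic globins, were those of *Bex2* (83.3, 96.0 and 88.9 CPM at E14.5 and 3.79 and 5.66 at E18.5, log2 fold change −4.25, SE 0.18, adjusted p = 1.6e-06), the retinoic acid-binding protein gene *Crabp1* (52.1, 61.8 and 54.0 CPM at E14.5 and 4.36 and 3.21 at E18.5, log2 fold change −3.88, SE 0.16, adjusted p = 1.4e-06) and the imprinted *Nnat* (−3.19, SE 0.42). An exact permutation test of 3 against 2 sections cannot go below p = 0.1 (two-sided), so single genes carry only the adjusted p of the fit across all genes.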

How the data were processed

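UMI counts per gene and spot were deposited by the authors for each section. Per the file headers they were made with Space Ranger 2.0.0 (E14.5 controls 1 and 2 and the E14.5 CaV1.1 knockout) or 2.0.1 (the other sections). The probe set was that for mm10 (GRCm38), with 19465 genes, and the counts are not normalized. Spots under tissue with at least 1000 UMIs were kept and scored, and the counts of the muscle spots were summed per section, 12835167 to 75800909 UMIs. No doublet caller was run. The sums were tested with edgeR 4.0.16 (R 4.3.3) after filterByExpr and TMM, with a quasi-likelihood test and Benjamini-Hochberg adjustment, with 3 residual degrees of freedom; the 9 score genes stayed in the fit but out of the counts of called genes, and pairs that hold one are counted apart. The study's Wilcoxon test over spots was not used, since sections are the replicates. Sections come from separate embryos, and litters are not named. The stage by region test used 10 sums with the section as a block. DESeq2 1.42.0, other scalings, spot rules, a thinned depth and left-out sections were alternatives. Scripts were tested on simulated data in which a small set of genes changed, as many up as down. Such data cannot show how the TMM scaling holds where most genes and the composition change. Promoter windows and positions are from RefSeq (GRCm38.p6), with a position for 263 of 270 named genes.

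The members, gene lists, isoform pairs and printed promoters were chosen with earlier results of these data known. Genes were named by rule: per list, at most the 4 called members with the largest change in each direction; the members of the isoform pairs; the 10 largest rises and falls among called, muscle-rich genes of at least 5 log2 CPM with no overlap between stages; the 5 largest in each direction among those that were not muscle-rich; and the 5 largest interaction terms in each direction. Other names in the text (genes not called, Y-linked genes, partners of a named isoform) were added to account for their list. An isoform ratio used 0.5 UMIs as a pseudocount. The authors' deposited spatial autocorrelation scores were not used. A few genes, and 2 isoform pairs that hold them, count in the totals but are not reported here.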

Additional observations from a re-analysis of the deposited data

Results flagged for a closer look

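The stage difference in muscle spots was compared with that in the other spots of the same sections, by the interaction term of the edgeR quasi-likelihood fit. Of the 1921 genes called toward E18.5 and the 1048 called toward E14.5, 10 of at least 5 log2 CPM are given here. The log2 terms toward E18.5 in muscle were 4.16 for *Eef1a2*, 3.37 for *Wnt4*, 2.67 for *Tgm2*, 2.63 for *Fam131a* and 2.49 for *Ndrg2*. Those toward E14.5 in muscle were −3.98 for *Myh6*, −3.20 for *Fst*, −2.62 for *Bex2*, −2.25 for *Olfml2b* and −2.03 for *Cgref1*. They are the 5 largest called terms in each direction, and the terms of *Eef1a2* and *Myh6* lost their call when 1 E14.5 section was left out (0.35 without control 1 and −3.79 without control 2). The *Myh6* term was −2.11 without E18.5 control 1.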

How the results depend on the processing

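Scaling moved the counts most. Scaled to the 9 muscle genes, 285 genes were called higher at E18.5 (208 at least 2-fold) and 13322 at E14.5 (12951 at least 2-fold); by total UMIs without TMM, a setting chosen after seeing the data, the counts were 2222 (1262) and 8979 (5247). With the sections of 1 Space Ranger version, 3212 genes were higher at E14.5. That fit and those without an E18.5 section leave 1 section in a stage, which is assumed to vary like the other stage. Leaving out 1 section gave 4323 to 4728 genes higher at E18.5 and 4195 to 4490 at E14.5. The 18 settings other than the 2 shifted scalings kept 71.4% to 99.8% of the calls, with 1 call in the opposite direction in the highest-scoring 50% of muscle spots and none in the others. With the replicate block 9025 genes were called, 4579 higher at E18.5 and 4446 at E14.5. Same-numbered sections deviated from their stage means with correlations of −0.36 and −0.35. With 2 E18.5 sections their deviations are mirror images, so these correlations cannot show whether same-numbered sections share more than a number.

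The stage by region calls numbered 1433 to 2678 with 1 section left out, 946 to 1708 toward E18.5 and 402 to 970 toward E14.5. With no section block, also chosen after seeing the data, they were 1717, 1227 and 490. The replicate number as a block was not run for this test, which already has the section as a block. Among named genes 73 alternative values lost their call and 16 gained one. None reversed when the 2 shifted scalings are read relative to their shift, but on their own scales 70 of 246 called named genes turned from higher to lower at E18.5 with the 9 muscle genes and 7 without TMM. Of the list counts 54 values moved by over 1.5 times, 26 of them in marker lists, and 1494 did not. The stage difference of single isoform pairs moved beyond the spread of sections in 14 values and did not in 371, while the number of higher pairs stayed at 33. With 2 sections at E18.5, the spread at that stage rests on 1 difference.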
